A study of Danio rerio with 4 samples.

Results

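The transcriptomes of KDM5A-KO and WT zebrafish embryos were compared at 48 hpf (hours post fertilization), with 1 library per group, which are 2 of the 4 libraries of the series. According to the sample labels, KO fish and WT fish were mated apart, whole embryos were taken, and the Kdm5a-KO genotype was made with CRISPR/Cas9. The methods of the study instead describe the injection of a guide RNA with a Cas9 plasmid for embryos of 24 hpf, and the sample titles carry an unexplained "mo", so how the KDM5A-KO embryos of 48 hpf were made is not settled. The libraries of 24 hpf, 1 of each genotype, are used only to show the level of the same genes a day earlier. The columns of the expression table are named by a letter with a number. Reading K as KDM5A-KO, C as WT, 1 as 24 hpf and 2 as 48 hpf is an inference that neither the table nor the labels spell out. All values are FPKM, fragments scaled to gene length and to the mapped fragments of the library.

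KDM5A is a demethylase that removes methyl groups from lysine 4 of histone H3, a mark of active promoters. At 48 hpf a zebrafish embryo has a beating heart and contracting trunk muscle, its lens is filling with crystallins, and the neurons of its retina are being born and are beginning to differentiate. A whole-embryo library is a mixture of all these tissues. Fewer cells of a type and less RNA per cell therefore cannot be told apart in any of the values that follow.

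The 48 hpf libraries held 15922314 reads for KDM5A-KO and 15525056 for WT, as recovered from the FPKM values. Mitochondrial genes took 3.43% of the reads of the KDM5A-KO library and 3.75% of those of the WT library, and the 10 genes with most reads took 10.3% in the KDM5A-KO library and 8.20% in the WT library. Each group had 1 library, so no difference has a replicate check and no p-value is given. The 95% exact (Clopper-Pearson) intervals given with FPKM ratios, KDM5A-KO over WT, cover counting error only. The log2 ratio was computed after adding 1 FPKM to both values, as log2((KDM5A-KO + 1)/(WT + 1)), which makes the differences of low genes look smaller than they are.

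The targeted gene, listed as KDM5A (ENSDARG00000104567) on the unplaced scaffold KN150487.1, had 16.3 FPKM in the KDM5A-KO library and 18.1 in the WT library at 48 hpf. The ratio was 0.902 (interval 0.823 to 0.987), so its mRNA was present in the library labelled KDM5A-KO at close to the WT level. At 24 hpf it was higher in the library labelled KDM5A-KO, with 20.3 FPKM against 13.8 in WT. The mRNA level thus gives little check of the genotype labels at either time, and the KDM5A protein was not measured in these libraries. Among the paralogs, kdm5ba had 30.3 FPKM in KDM5A-KO and 24.0 in WT, kdm5bb 46.9 and 64.0, and kdm5c 47.1 and 49.5, the KDM5A-KO value first in each. None of the 30 listed genes of the KDM5 family and of H3K4 methylation was past 2-fold, and their median log2 ratio was -0.19, where that of all protein-coding genes was -0.02.

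Of the 24058 protein-coding genes, the KDM5A-KO library had 602 at 2-fold WT or above (2.50%) and 841 at 2-fold below WT or lower (3.50%). Among the 16918 with a mean of at least 1 FPKM over the 48 hpf libraries, 586 were higher (3.46%) and 814 lower (4.81%). These shares are the background for every list below. The 15 lowest log2 ratios among protein-coding genes with a symbol and at least 10 FPKM in either library included gnb3a, rs1a, rho, crx and vsx1 of the eye, and the 15 highest included cxcl18b, mmp9, hsp70l, cdkn1a and mdm2. Because these genes were picked by their ratios, they lie on opposite sides of the diagonal in the scatter of the 48 hpf libraries.

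**Figure D1:**
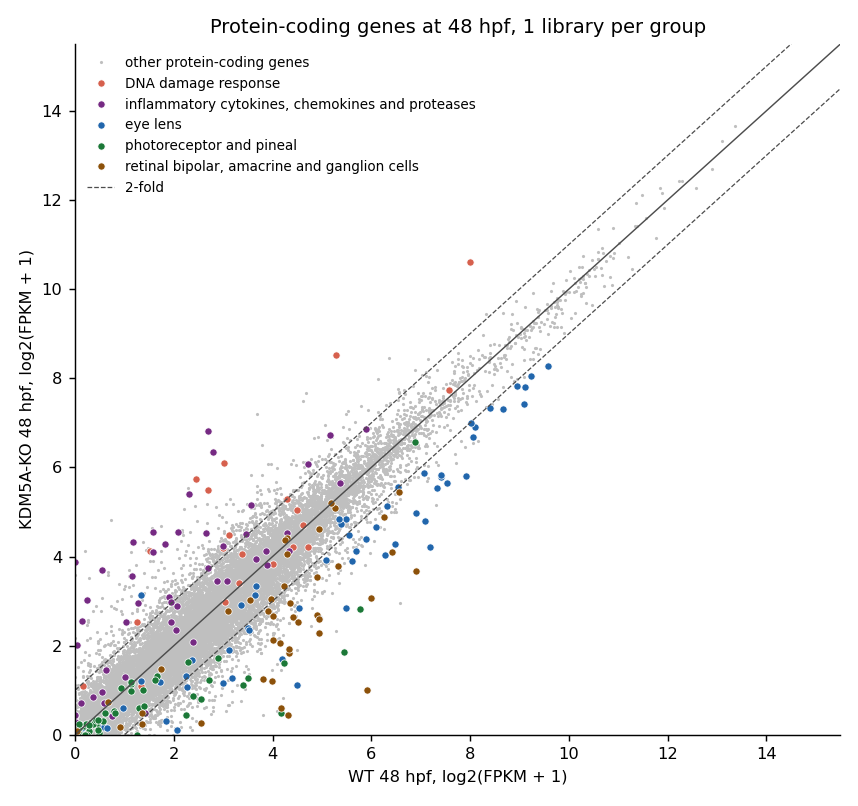
Each point is a protein-coding gene, with log2(FPKM + 1) in the WT 48 hpf library on the x axis and in the KDM5A-KO 48 hpf library on the y axis. Dashed lines mark 2-fold. Of the coloured lists, 41 of 64 lens genes lie below the lower line, and 9 of 22 genes of the DNA damage response and 25 of 53 inflammatory genes lie above the upper line.

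The lens list held more lower genes than any other list. Of 64 lens genes, 53 had a mean of at least 1 FPKM, 41 were at least 2-fold lower in the KDM5A-KO library and 1 was higher, with a median log2 ratio of -1.19. Their summed level was 2626 FPKM in KDM5A-KO and 6952 in WT at 48 hpf. Crystallins are the soluble proteins that give the lens its refractive index. The most abundant was cryba4, a beta-crystallin, with 309 FPKM in KDM5A-KO and 768 in WT, a ratio of 0.402 (0.386 to 0.418). Other abundant crystallins showed ratios of the same size, namely 0.438 for cryba1b, 0.402 for crygn2 and 0.455 for crybb1. The alpha-crystallin cryaa, a small heat shock protein, had 14.1 FPKM in KDM5A-KO and 32.7 in WT.

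The gamma-crystallins of the crygm2d cluster on chromosome 9 were lower throughout, with ratios between 0.0542 for crygm2d11 and 0.413 for crygm2d21. crygm2d13 had 170 FPKM in KDM5A-KO and 544 in WT, crygm2d15 had 17.6 in KDM5A-KO and 145 in WT, and crygm2d11 had 1.17 in KDM5A-KO and 21.6 in WT. These genes are near-identical copies, so reads may have been split between them and the single values are uncertain. Genes of the lens fibre were lower as well, and bfsp2, which encodes a beaded filament protein, had 16.3 FPKM in KDM5A-KO and 50.4 in WT. The water channel genes differed less, with 27.7 FPKM in KDM5A-KO and 44.1 in WT for mipa and 21.5 in KDM5A-KO and 45.6 in WT for mipb. The lens regulator pitx3 was near its WT level, at 9.10 FPKM in KDM5A-KO and 11.7 in WT. Past 2-fold on the higher side was crygn1, with 7.80 FPKM in KDM5A-KO and 1.51 in WT.

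Photoreceptor and pineal genes were mostly low at this age. Of 46 listed genes, 20 had a mean of at least 1 FPKM, 12 were at least 2-fold lower and none was higher. Rhodopsin, rho, the rod pigment, had 0.404 FPKM in KDM5A-KO and 16.9 in WT, a ratio of 0.0238 (0.0113 to 0.0443). The homeobox gene crx, a regulator of photoreceptor genes, had 2.64 FPKM in KDM5A-KO and 42.3 in WT, and otx5, its relative in retina and pineal, had 6.04 in KDM5A-KO and 53.3 in WT. nr2e3, a nuclear receptor of rods, had 2.06 FPKM in KDM5A-KO and 17.7 in WT. All of these were under 1 FPKM in both libraries of 24 hpf. The red cone opsin opn1lw2 had 0.833 FPKM in KDM5A-KO and 4.24 in WT, and arr3a, a cone arrestin, 2.3 in KDM5A-KO and 6.43 in WT. The pineal gene aanat2, which encodes an enzyme of melatonin synthesis, was less far apart at 1.35 FPKM in KDM5A-KO and 2.05 in WT.

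The lowest log2 ratio of the protein-coding genes was that of gnb3a, a G protein beta subunit, with 0.994 FPKM in KDM5A-KO and 59.5 in WT, a ratio of 0.0167 (0.0113 to 0.0238). rs1a, which encodes the retinal adhesion protein retinoschisin, had 0.359 FPKM in KDM5A-KO and 18.7 in WT. The bipolar cell factors vsx1 and bhlhe23 were also among the 15 lowest, with 11.8 FPKM in KDM5A-KO and 119 in WT for vsx1, and 0.524 in KDM5A-KO and 17.1 in WT for bhlhe23. pou4f2, a factor of retinal ganglion cells, had 3.83 FPKM in KDM5A-KO and 29.9 in WT. gng13b, a G protein gamma subunit, had 7.44 FPKM in KDM5A-KO and 62.6 in WT. Of 41 genes of bipolar, amacrine and ganglion cells, 26 were at least 2-fold lower and none was higher, with a median log2 ratio of -1.38, but this list was drawn up after the values were seen.

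Among 31 genes of retinal progenitors and neurons, 13 were lower and 1 was higher. Of the lower ones, vsx1 and neurod1 are also in the list of bipolar, amacrine and ganglion cells, so these counts overlap. The lower ones included factors of differentiating neurons, such as neurod1 with 16.3 FPKM in KDM5A-KO and 84.2 in WT, and prox1a with 8.32 in KDM5A-KO and 32.0 in WT, but also six6b, a factor of the early eye, with 10.8 in KDM5A-KO and 25.9 in WT. The higher one was rx1, a homeobox gene of retinal progenitors, with 16.9 FPKM in KDM5A-KO and 5.50 in WT, a ratio of 3.07 (2.69 to 3.53). Other genes of the early eye lay nearer to WT: atoh7, needed for ganglion cells, had 7.09 FPKM in KDM5A-KO and 10.7 in WT, and pax6a had 30.8 in KDM5A-KO and 46.6 in WT. rx2, a further retinal homeobox gene, had 5.25 FPKM in KDM5A-KO and 5.61 in WT. The higher ratio of rx1 was therefore not shared by these genes.

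**Figure D2:**
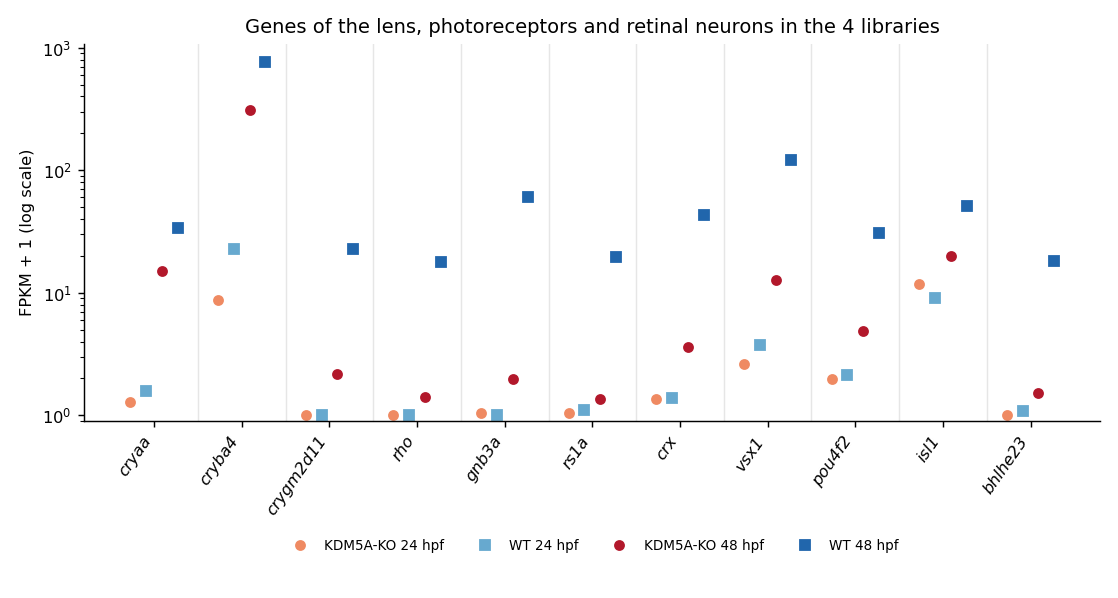
FPKM + 1 on a log axis of 11 eye genes in the 4 libraries, with 24 hpf left of 48 hpf and KDM5A-KO (circles) left of WT (squares). At 48 hpf all 11 genes are lower in KDM5A-KO, and gnb3a has the widest gap, with 0.994 FPKM against 59.5 in WT.

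Genes used by neurons in general, those of the retina among them, were also lower. Of 50 genes of the neuronal cytoskeleton and synapse, 49 had a mean of at least 1 FPKM, 19 were at least 2-fold lower and none was higher, with a median log2 ratio of -0.81. stmn1b, a tubulin-binding stathmin, had 92.0 FPKM in KDM5A-KO and 267 in WT, a ratio of 0.344 (0.329 to 0.360). sncb, beta-synuclein, had 65.1 FPKM in KDM5A-KO and 162 in WT, and snap25b, part of the vesicle fusion machinery, 14.5 in KDM5A-KO and 44.8 in WT. The broadly neuronal RNA-binding gene elavl3 was within 2-fold, at 122 FPKM in KDM5A-KO and 183 in WT, whereas elavl4 had 34.7 in KDM5A-KO and 77.9 in WT. The neurofilament genes did not follow: nefma had 20.2 FPKM in KDM5A-KO and 18.2 in WT, and nefmb 24.5 in KDM5A-KO and 24.4 in WT.

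Genes of transmitters and receptors went the same way. For GABA, slc6a1b, a transporter, had 10.9 FPKM in KDM5A-KO and 34.5 in WT, and gad2, a synthesis enzyme, had 6.94 in KDM5A-KO and 21.5 in WT. In all, 5 of 28 genes of transmitter synthesis and transport were lower and none was higher. Of 40 glutamate receptor genes, 7 were lower and none higher, with gria2a, an AMPA receptor subunit, at 8.84 FPKM in KDM5A-KO and 21.6 in WT and grin1b, an NMDA receptor subunit, at 3.65 in KDM5A-KO and 11.5 in WT. Of 65 protocadherin genes, cell adhesion molecules of neurons, 14 were lower and none higher, among them pcdh8 with 0.711 FPKM in KDM5A-KO and 5.80 in WT. The receptor and protocadherin lists were also drawn up after the values were seen, and the protocadherins of the clusters share exons, so their single values are uncertain.

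Of 19 motor neuron genes, 15 were below WT, with a median log2 ratio of -0.19. At least 2-fold lower were 4, all homeobox genes, and none was higher. isl1 had 19.1 FPKM in KDM5A-KO and 49.6 in WT, and isl2b 3.40 in KDM5A-KO and 15.1 in WT. lhx4 had 5.28 FPKM in KDM5A-KO and 20.4 in WT, and LHX3 4.43 in KDM5A-KO and 11.3 in WT. isl1 is also expressed in neurons of the retina, and isl2b is in the list of sensory neurons and hair cells as well. Of 47 genes of neural progenitors and proneural factors, 6 were lower and 2 higher, with a median log2 ratio of -0.01. The lower ones included neurod6b, at 8.04 FPKM in KDM5A-KO and 31.1 in WT, and neurod2, at 0.196 in KDM5A-KO and 4.82 in WT. The higher ones were zic2b, at 25.7 FPKM in KDM5A-KO and 11.4 in WT, and atoh1b, at 20.2 in KDM5A-KO and 8.57 in WT. Among 26 glial genes, 1 was higher and 3 were lower, with a median log2 ratio of -0.21. The higher one was slc1a3a, a glutamate transporter of radial glia, at 59.6 FPKM in KDM5A-KO and 25.2 in WT. Of the lower ones, fabp7a, a fatty acid binding protein of the same cells, had 259 FPKM in KDM5A-KO and 542 in WT. slc1a2b had 65.3 FPKM in KDM5A-KO and 133 in WT, and olig1 0.0850 in KDM5A-KO and 2.62 in WT.

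In the inner ear, oc90, a matrix protein of the otolith, had 9.41 FPKM in KDM5A-KO and 0.840 in WT, a ratio of 11.2 (8.25 to 15.6). The hair cell genes pvalb8 and s100t ran the other way. pvalb8 had 4.71 FPKM in KDM5A-KO and 19.2 in WT, and s100t 2.96 in KDM5A-KO and 13.4 in WT. Of the 41 genes of sensory neurons and hair cells, 1 was higher and 4 were lower, with a median log2 ratio of -0.07. The list was near WT as a group, with 14 members above WT and 27 below, and 20 had a mean of at least 1 FPKM.

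Several of the highest ratios were those of genes of the DNA damage response, which halts the cell cycle, repairs DNA or starts cell death. cdkn1a, the cell cycle inhibitor p21, had 52.3 FPKM in KDM5A-KO and 4.44 in WT, and mdm2, a ubiquitin ligase, had 67.3 in KDM5A-KO and 7.05 in WT. ccng1, cyclin G1, had the fourth largest gain in FPKM of all protein-coding genes, with 1565 in KDM5A-KO and 253 in WT. RPS27L had 366 FPKM in KDM5A-KO and 37.8 in WT.

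In total 9 of 22 listed genes of this response were at least 2-fold higher at 48 hpf and none was lower, with a median log2 ratio of 0.80. Pro-apoptotic members were among them, namely casp8 with 16.3 FPKM in KDM5A-KO and 1.87 in WT, phlda3 with 43.9 in KDM5A-KO and 5.46 in WT, and bbc3 with 4.77 in KDM5A-KO and 1.37 in WT. Others did not move with them: btg2 had 214 FPKM in KDM5A-KO and 189 in WT, sesn1 6.93 in KDM5A-KO and 7.20 in WT, and rrm2b 17.6 in KDM5A-KO and 25.4 in WT. At 24 hpf 15 of the 22 were past 2-fold on the higher side in the library labelled KDM5A-KO, against 2.54% of protein-coding genes. The summed level of the list in the KDM5A-KO libraries was 3498 FPKM at 24 hpf and 2547 at 48 hpf, and in the WT libraries 460 at 24 hpf and 666 at 48 hpf.

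Heat shock genes were higher at 48 hpf. hsp70l had 146 FPKM in KDM5A-KO and 11.9 in WT, a ratio of 12.2 (11.1 to 13.5), while at 24 hpf it had 0.708 in the library labelled KDM5A-KO and 0.642 in WT. hsp70.1 had 24.7 FPKM in KDM5A-KO and 2.33 in WT, and hsp70.2 and hsp70.3, its near-identical neighbours, had 66.2 and 123 in KDM5A-KO against 14.7 and 32.3 in WT. The small heat shock genes hspb1, hspb8 and hspb11 were higher as well, with 46.7, 22.1 and 56.0 FPKM in KDM5A-KO against 11.9, 7.08 and 10.9 in WT. The constitutive chaperones stayed near WT: hspa8 had 1123 FPKM in KDM5A-KO and 1288 in WT, and hspa5, the chaperone of the endoplasmic reticulum, 151 in KDM5A-KO and 163 in WT. fkbp5, a target of the glucocorticoid receptor, had 22.9 FPKM in KDM5A-KO and 7.04 in WT, and tsc22d3, another such target, had 16.2 in KDM5A-KO and 16.3 in WT. Of the 47 glucocorticoid and stress genes, 16 were higher and 1, npas4a, was lower.

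Cytokine, chemokine and matrix protease genes included the highest log2 ratio of the protein-coding genes, that of cxcl18b, a neutrophil-attracting chemokine in zebrafish. It had 112 FPKM in KDM5A-KO and 5.50 in WT, a ratio of 20.4 (16.6 to 25.3). CXCL8, another neutrophil chemokine, had 19 FPKM in KDM5A-KO and 1.25 in WT, and il1b, interleukin 1 beta, 16.2 in KDM5A-KO and 1.97 in WT. The matrix metalloproteinase genes mmp9 and mmp13a had 80.7 and 22.3 FPKM in KDM5A-KO against 5.96 and 1.99 in WT. il11a, a cytokine of the interleukin 6 family, had 12 FPKM in KDM5A-KO and 0.463 in WT. NF-kappaB inhibitors were higher too, with nfkbiaa at 22.2 FPKM in KDM5A-KO and 5.27 in WT. Of 53 such genes, a list drawn up after the values were seen, 25 were higher and none was lower at 48 hpf, and 19 were higher at 24 hpf.

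Markers of myeloid cells were not higher as a group. Of 47 genes of macrophages and neutrophils, 6 were higher and none lower, with a median log2 ratio of 0.01, and their summed level was 634 FPKM in KDM5A-KO and 348 in WT. The higher ones included mmp9, mmp13a, il1b, lect2l and cebpb, the last of which is in the skin list as well. lect2l had 11.1 FPKM in KDM5A-KO and 1.24 in WT, a ratio of 8.98 (5.16 to 16.9). The neutrophil genes lyz and mpx had 25 and 1.98 FPKM in KDM5A-KO against 50.2 and 3.77 in WT, and the macrophage receptor csf1ra had 1.44 in KDM5A-KO and 2.5 in WT. mpeg1.2, a macrophage gene, was the opposite at 7.21 FPKM in KDM5A-KO and 0.928 in WT, and mpeg1.1 had 0.715 in KDM5A-KO and 2.01 in WT. The part of these cells in the cytokine values was not tested. Interferon-response genes were mostly low: 3 of 49 were higher, among them isg15 with 11.9 FPKM in KDM5A-KO and 1.13 in WT, and 11 were higher at 24 hpf. With 0.1 FPKM added in place of 1, the counts at 48 hpf were 13 higher and 3 lower for the interferon list, and 10 higher and 6 lower for macrophages and neutrophils.

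Genes known to respond to low oxygen were also higher. The leptin genes lepb and lepa had 13.6 and 10.9 FPKM in the KDM5A-KO library and were without a read in the WT library. Against a floor of 3 reads in the WT library they were at least 41.6-fold higher for lepb and at least 34.5-fold higher for lepa. The lower limits of the exact intervals, which also count the error of the KDM5A-KO reads, were 33.3 for lepb and 27.5 for lepa. egln3, a prolyl hydroxylase that senses oxygen, had 11.6 FPKM in KDM5A-KO and 0.584 in WT, and p4ha1b, a collagen prolyl hydroxylase, had 62.5 in KDM5A-KO and 15.9 in WT. The vascular growth factor vegfaa stayed within 2-fold, with 11.3 FPKM in KDM5A-KO and 7.42 in WT, as did ldha, lactate dehydrogenase, with 124 in KDM5A-KO and 94.7 in WT. Of 45 genes, again listed after the values were seen, 12 were higher and none was lower, and 3 were higher at 24 hpf.

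**Figure D3:**
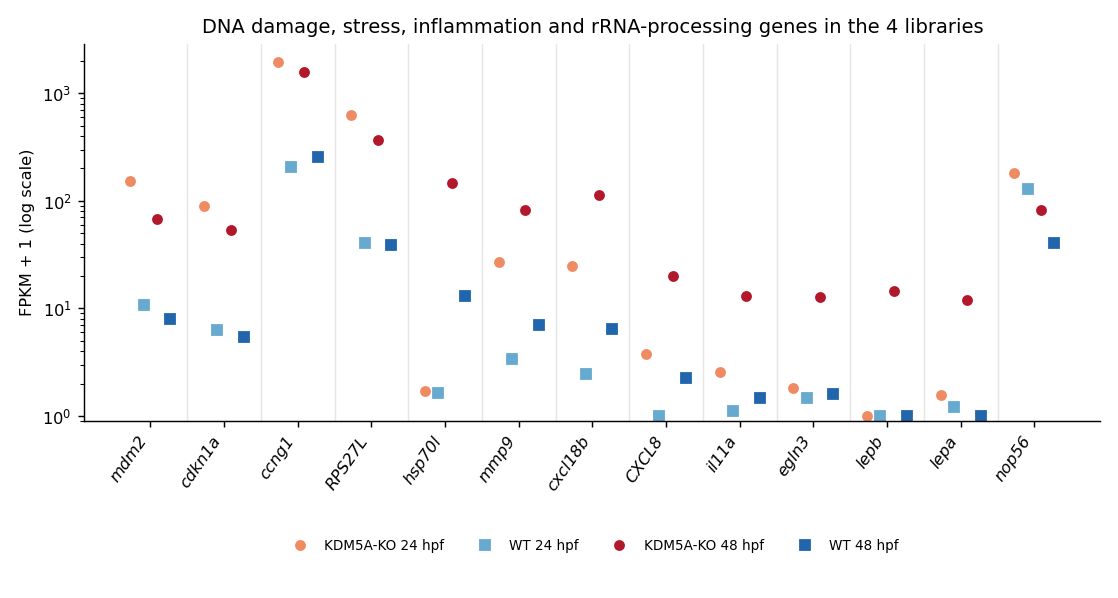
FPKM + 1 on a log axis of 13 genes of the DNA damage response, heat shock, inflammation, low oxygen and rRNA processing in the 4 libraries, laid out as in the plot of eye genes. mdm2, cdkn1a, ccng1 and RPS27L are far apart at both times, whereas hsp70l, lepa and lepb are apart at 48 hpf and below 1 FPKM at 24 hpf.

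Most genes of ribosome biogenesis were higher, with log2 ratios from -0.33 to 1.76 over the list. Of 106, drawn up as a list after the values were seen, all had a mean of at least 1 FPKM, 60 were at least 2-fold higher and none was lower, with a median log2 ratio of 1.03. npm1a, a nucleolar chaperone, had 164 FPKM in KDM5A-KO and 54.4 in WT, a ratio of 3.02 (2.86 to 3.19), and fbl, fibrillarin, had 169 in KDM5A-KO and 78.1 in WT. nop58 and nop56, of the box C/D particles, had 83.9 and 81.2 FPKM in KDM5A-KO against 35.5 and 39.9 in WT. Subunits of RNA polymerase I were among them, such as polr1a with 14.6 FPKM in KDM5A-KO and 5.72 in WT. The genes of the ribosomal proteins themselves were level: none of 79 was past 2-fold, and their median log2 ratio was -0.07. rps15 was among the 10 largest losses in FPKM of the protein-coding genes, with 1072 in KDM5A-KO and 1684 in WT, a ratio of 0.637. At 24 hpf 2 of the 106 biogenesis genes were past 2-fold, and their median log2 ratio was 0.67.

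Muscle genes were higher, many of them by less than 2-fold. Of 89 genes of the skeletal muscle sarcomere and of calcium handling, 13 were at least 2-fold higher and 3 lower, with a median log2 ratio of 0.47, and their summed level was 61474 FPKM in KDM5A-KO and 47751 in WT. The largest gain in FPKM of any protein-coding gene was that of actc1b, an alpha-actin, with 12850 in KDM5A-KO and 10611 in WT, a ratio of 1.21 (1.2 to 1.22). The genes past 2-fold included factors that fold and assemble myosin. unc45b, a myosin chaperone, had 44.7 FPKM in KDM5A-KO and 13.9 in WT, and smyd1b, a methyltransferase needed for myosin assembly, 119 in KDM5A-KO and 42.2 in WT. tcap, which anchors titin at the Z-disc, had 178 FPKM in KDM5A-KO and 23.4 in WT, a ratio of 7.63 (6.90 to 8.45), and xirp1, of the same structures, had 13.8 in KDM5A-KO and 2.35 in WT. smyhc1, the slow myosin heavy chain, had 215 FPKM in KDM5A-KO and 91.6 in WT.

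The 3 lower muscle genes encode proteins of energy metabolism and oxygen storage. ckmt2a, a mitochondrial creatine kinase, had 0.451 FPKM in KDM5A-KO and 16.0 in WT, ampd1, AMP deaminase, 19.5 in KDM5A-KO and 65.8 in WT, and mb, myoglobin, 18 in KDM5A-KO and 54.9 in WT. Outside the list, flnca, filamin C, had 23.9 FPKM in KDM5A-KO and 1.93 in WT, and ankrd1a, a stretch-responsive muscle gene, had 16.1 in KDM5A-KO and 1.19 in WT. At 24 hpf 1 of the 89 muscle genes was higher and 3 were lower, with a median log2 ratio of -0.11.

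Of 40 heart genes, 5 were higher and 1 was lower, with a median log2 ratio of 0.44. They included tnnt2a, cardiac troponin T, with 7.45 FPKM in KDM5A-KO and 2.29 in WT, and gata5, a heart and gut factor, with 5.22 in KDM5A-KO and 1.81 in WT, while vmhc, the ventricular myosin, had 5.68 in KDM5A-KO and 5.84 in WT. Of 21 notochord genes, 3 were higher, with cmn, calymmin, at 36.9 FPKM in KDM5A-KO and 15.7 in WT, and the median log2 ratio was 0.55. Of 41 genes of motile cilia, 4 were higher and none was lower, among them the ciliary regulator foxj1a with 9.79 FPKM in KDM5A-KO and 3.46 in WT. Of 16 hatching gland genes, 4 were higher, with the hatching enzyme gene he1a at 33.5 FPKM in KDM5A-KO and 6.28 in WT. he1a and he1b, and the 2 entries named ctslb, are close copies, and their single values are uncertain.

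In the skin, 4 of 60 genes of epidermis and keratins were higher and 1 was lower. krt18 had 292 FPKM in KDM5A-KO and 118 in WT, anxa2a, an annexin, 153 in KDM5A-KO and 45.4 in WT, and krt91, the lower one, 87.0 in KDM5A-KO and 237 in WT. Of 33 genes of skin ionocytes, 2 were higher and none was lower, with a median log2 ratio of 0.12. In this list 20 genes were above WT and 13 below, and the summed level was 235 FPKM in KDM5A-KO and 213 in WT. rhcga, an ammonia transporter of ionocytes and 1 of the higher ones, had 34.2 FPKM in KDM5A-KO and 4.37 in WT. Pigment cell genes were lower in 2 of 27 cases for melanophores and in 4 of 28 for xanthophores and iridophores, with pnp4a, an iridophore enzyme, at 9.21 FPKM in KDM5A-KO and 21.9 in WT. In cartilage, 5 of 53 genes were at least 2-fold lower and none was higher, but the median log2 ratio was -0.02. Of the 53, 22 were above WT and 31 below, and their summed level was 1747 FPKM in KDM5A-KO and 1632 in WT. matn1, a cartilage matrix protein, had 0.382 FPKM in KDM5A-KO and 5.78 in WT, and col10a1a, a collagen of bone-forming and hypertrophic cells, had 0.595 in KDM5A-KO and 7.66 in WT.

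Of 69 genes of liver and yolk plasma proteins, 7 were lower and none was higher at 48 hpf, with apom, an apolipoprotein, at 6.14 FPKM in KDM5A-KO and 26.9 in WT, while 11 were higher at 24 hpf. In the pancreas list 3 of 36 genes were higher and 2, neurod1 and isl1, were lower. The higher ones included the hormone genes ins at 15.8 FPKM in KDM5A-KO and 5.58 in WT and gcgb at 11.4 in KDM5A-KO and 1.63 in WT. Of 38 embryonic globin and erythroid genes, 2 were higher and 2 lower (5.26% each), with a summed level of 2330 FPKM in KDM5A-KO and 2214 in WT. The globin hbbe3 was higher, at 345 FPKM in KDM5A-KO and 141 in WT, and hbbe1.2 lower, at 30.9 in KDM5A-KO and 83 in WT. tal1, a blood stem cell factor, had 2.90 FPKM in KDM5A-KO and 9.65 in WT.

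Several lists had few or no genes past 2-fold. None of 41 endothelial genes was, with a median log2 ratio of 0.05, and none of 60 genes of the cell cycle and DNA replication, with a median of 0.10. pcna, the replication clamp, had 254 FPKM in KDM5A-KO and 237 in WT, and mki67, a proliferation marker, 58.3 in KDM5A-KO and 53.8 in WT. Of 48 Hox genes 1 was past 2-fold, hoxb1a, at 3.83 FPKM in KDM5A-KO and 1.41 in WT, and its log2 ratio was at the threshold. None of 31 germ cell genes was past 2-fold, but only 3 of them had a mean of at least 1 FPKM. The 13 protein-coding genes of the mitochondrial genome had a median log2 ratio of -0.64, with mt-nd2 at 793 FPKM in KDM5A-KO and 1420 in WT and mt-co1 at 10214 in KDM5A-KO and 8750 in WT, whereas 98 nuclear genes of the respiratory chain had a median of 0.12.

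**Figure D4:**
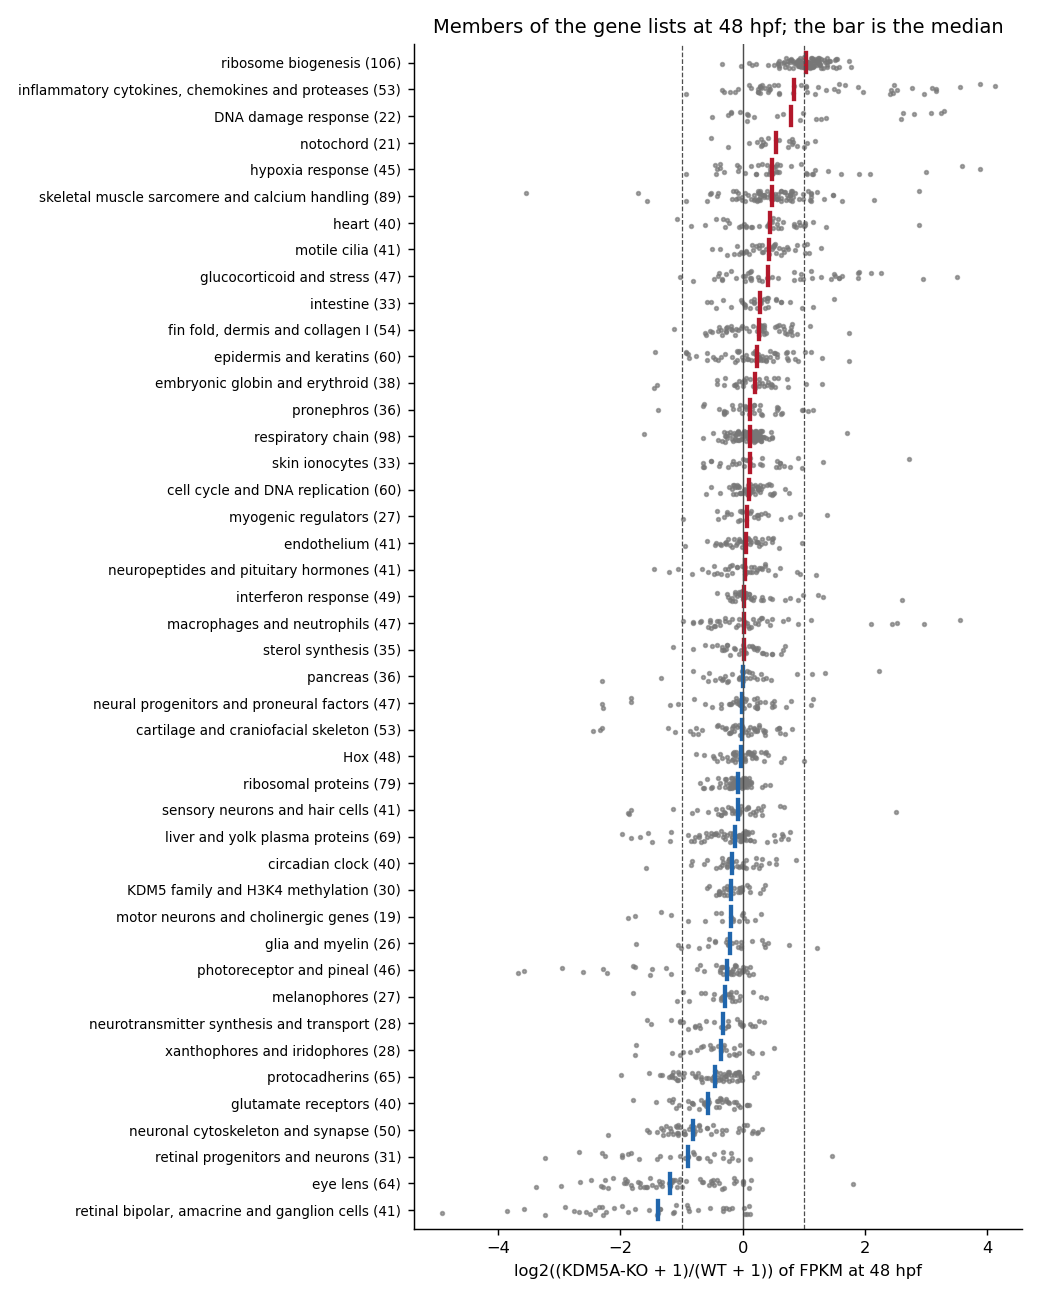
Log2((KDM5A-KO + 1)/(WT + 1)) of FPKM at 48 hpf on the x axis for each member (grey points) of the lists with at least 15 members of a mean of 1 FPKM or more, with the number of members in parentheses. The bar is the list's median, red above 0 and blue below, and dashed lines mark 2-fold; the medians run from -1.38 for bipolar, amacrine and ganglion cells to 1.03 for ribosome biogenesis.

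The study's question was about Wnt/beta-catenin target genes in neural development, and 13 genes it named were looked up. Of these, pax2a, pax2b, lef1 and tcf12 stand for genes that the study examined as candidate regulators of Kdm5a, not as its Wnt targets. The study described its zebrafish expression results at 24 hpf. At 48 hpf 1 of them was at least 2-fold higher with 1 FPKM added, atoh1b, with 20.2 FPKM in KDM5A-KO and 8.57 in WT. Its paralog atoh1a had 2.7 FPKM in KDM5A-KO and 1.26 in WT. The FPKM ratio of atoh1a was 2.13 (1.39 to 3.35), but its log2 ratio with 1 FPKM added was 0.71. 2 were lower, isl1, given above, and lef1, a transcription factor of the Wnt pathway, with 13.0 FPKM in KDM5A-KO and 28.2 in WT, a ratio of 0.462 (0.419 to 0.509). axin2, a feedback target of the pathway, had 23.8 FPKM in KDM5A-KO and 21.3 in WT, and bcl9l, a cofactor of beta-catenin, 5.84 in KDM5A-KO and 7.43 in WT. The remaining genes were within 2-fold. nkx2.2b was higher, at 4.07 FPKM in KDM5A-KO and 2.68 in WT, a ratio of 1.52 (1.11 to 2.09). Those below WT included sox1a at 13.3 FPKM in KDM5A-KO and 21.1 in WT, pax2a at 9.88 in KDM5A-KO and 15.8 in WT, and nkx2.2a at 11.6 in KDM5A-KO and 16.2 in WT. The median log2 ratio of the 13, candidate regulators included, was -0.27 at 48 hpf. At 24 hpf it was 0.20, a value that depends on scaling, as given below. With 0.1 FPKM added in place of 1, 2 of the 13 were at least 2-fold higher and 2 lower at 48 hpf.

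The GO terms that the table gives for each gene were counted as a further description. Among 1361 terms with at least 20 protein-coding genes of a mean of 1 FPKM or more, the largest share of lower genes was that of the structural constituent of eye lens, with 42 of 58 genes lower and 1 higher. Modulation of synaptic transmission had 8 of 22 genes lower and the AMPA glutamate receptor complex 9 of 25. The presynaptic membrane had 15 of 64 genes lower and none higher, and visual perception 33 of 141 lower and 4 higher. Protein-chromophore linkage, a term of opsins, had 5 of 20 genes lower, rho and opn1lw2 among them. A term less tied to neurons by its name was negative regulation of fat cell differentiation, with 6 of 25 genes lower, such as runx1t1 at 8.44 FPKM in KDM5A-KO and 27.4 in WT and rorab at 4.93 in KDM5A-KO and 16.8 in WT.

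On the higher side, the small-subunit processome, the particle that makes the small ribosomal subunit, had 15 of 27 genes at least 2-fold higher, and rRNA processing had 25 of 83. Extracellular matrix disassembly had 7 of 25, of which mmp2, mmp9, mmp13a and mmp30 are metalloproteinase genes. The sarcomere had 8 of 36 higher and 1 lower, but the higher ones included the same metalloproteinase genes mmp2 and mmp9. L-ascorbic acid binding had 4 of 22 higher, which were the prolyl and lysyl hydroxylases p4ha1b, p4ha2, egln3 and plod2, the last with 8.17 FPKM in KDM5A-KO and 3.41 in WT. Protein import into the nucleus had 5 of 20 higher, but these included nfkbiaa, nfkbiab and bcl3, regulators of NF-kappaB. The terms overlap in genes, so they are not independent of one another.

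**Figure D5:**
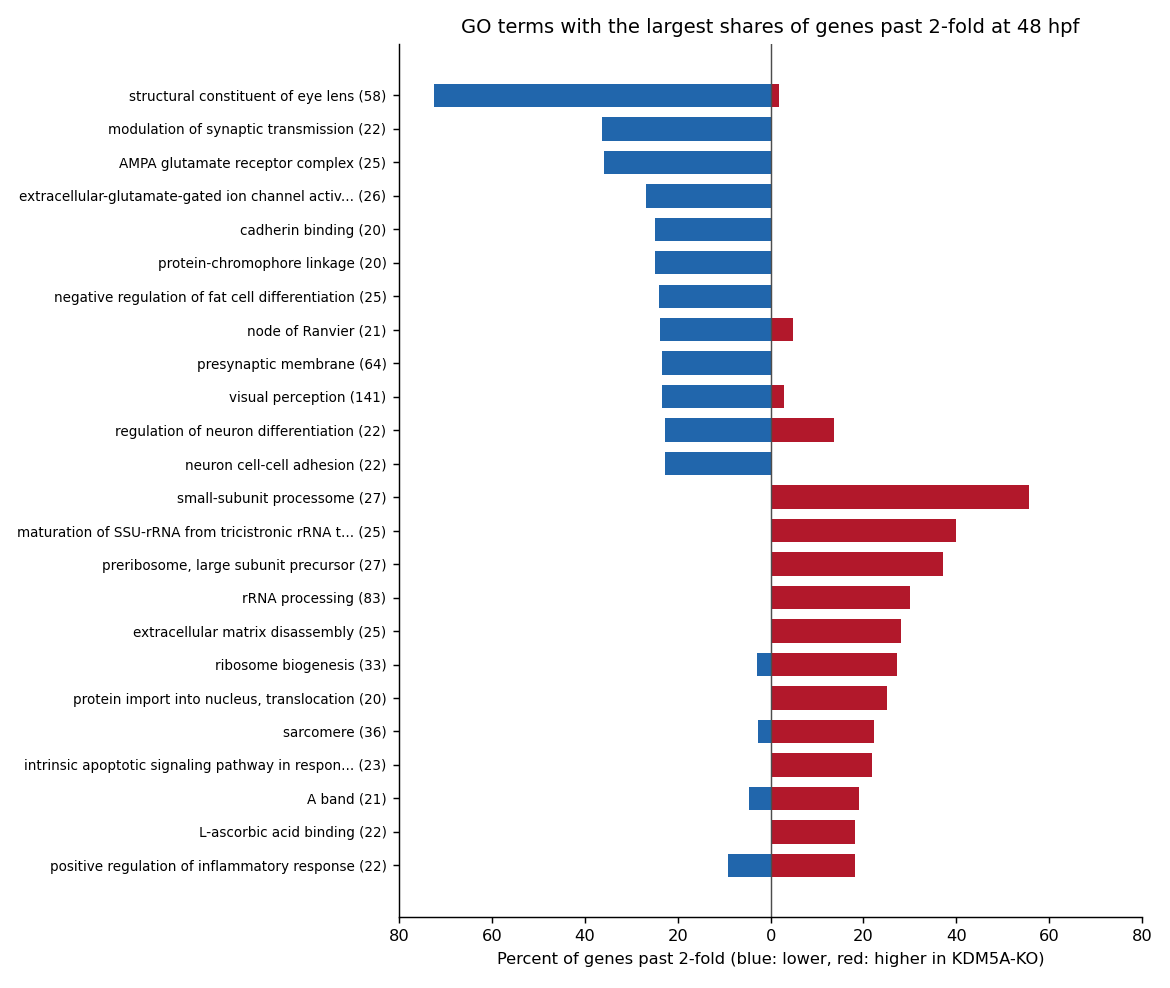
Percent of the genes of each GO term at least 2-fold lower (blue, left) and at least 2-fold higher (red, right) in KDM5A-KO at 48 hpf, for the 12 terms with the largest share in each direction, with the number of genes in parentheses. The longest bars are 72.4% lower for the structural constituent of eye lens and 55.6% higher for the small-subunit processome.

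The genes past 2-fold at 48 hpf were looked up at 24 hpf. Of the 602 higher genes, 155 were at least 2-fold higher at 24 hpf too, which is 25.7% of them and 25.4% of the 611 genes higher at 24 hpf, where the background was 2.54%. Their median log2 ratio at 24 hpf was 0.64, and 8 of them (1.33%) were at least 2-fold lower at 24 hpf. Of the 841 lower genes, 11 were lower at 24 hpf, or 1.31% of them and 6.92% of the 159 genes lower there, with a background of 0.661%. As many of the 841, 11 (1.31%), were at least 2-fold higher at 24 hpf, with a background of 2.54%. Their median log2 ratio at 24 hpf was -0.03, and 362 of them (43.0%) had less than 1 FPKM at 24 hpf in each genotype, compared with 8.96% of all protein-coding genes with a mean of at least 1 FPKM at 48 hpf. Of the higher genes 8.64% had less than 1 FPKM in each. With 1 FPKM added, a gene under 1 FPKM in both libraries cannot be past 2-fold. The 362 lower genes therefore could not be called at 24 hpf in either direction. The backgrounds of 2.54% and 0.661% are over all protein-coding genes. Over those with a mean of at least 1 FPKM at 48 hpf, 3.12% were higher and 0.721% lower at 24 hpf. The values at 24 hpf depend on scaling, since rescaling by median ratios moved the log2 FPKM ratios by -0.27 at 24 hpf and by -0.01 at 48 hpf. The 24 hpf libraries also differed in depth, with 14724748 reads in the library labelled KDM5A-KO and 7441797 in WT, and the 10 genes with most reads took 7.19% of the reads of the library labelled KDM5A-KO and 17.4% of those of WT. A single gene, zgc:158463, held 808144 of the WT reads at 24 hpf, against 58590 of the KDM5A-KO reads. Its level at that age was 89600 FPKM in WT and 3283 in KDM5A-KO. The same gene had the largest loss in FPKM of the protein-coding genes at 48 hpf, with 2268 in KDM5A-KO and 3476 in WT. At 24 hpf rRNA genes outside the mitochondrial genome took 0.0138% of the reads of the library labelled KDM5A-KO and 0.124% of those of WT. Every 24 hpf value rests on these libraries, and the parts of depth, of rRNA and of zgc:158463 in them were not tested.

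The shares of genes past 2-fold differed with level and with gene length, as recovered from the FPKM values, more than the medians did. With the protein-coding genes of a mean of at least 1 FPKM cut into 5 equal groups, the median log2 ratio was 0.01 for the group of the shortest genes and -0.12 for that of the longest. By level it was -0.08 for the group of the lowest genes and 0.05 for that of the highest. The share at least 2-fold higher was 4.51% among the shortest genes and 1.86% among the longest, and 2.13% at the lowest level and 4.73% at the highest. By chromosome, the share of lower genes ran from 2.77% on chromosome 4 to 8.07% on chromosome 9, which holds the crygm2d cluster. The part of length and level in the listed differences was not tested.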

How the data were processed

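RNA of 4 samples of whole zebrafish embryos had been sequenced, and the 48 hpf pair was compared here. The submitters' processing notes name FastQC 0.11.5, HISAT2 2.1.0, StringTie 1.3.3b and DESeq 1.28.0, and the study adds filtering with NGSQC. The authors deposited FPKM values for 26812 genes, together with biotypes, symbols and GO annotation. A genome build is not given in the sources used here apart from a mouse build in the notes, which zebrafish gene IDs do not match, so no coordinates are given. The labels name a SMARTER library kit and the study's methods an NEBNext Ultra kit.

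Values were used as deposited, since FPKM is not a count and each group had 1 library, which leaves no test. Library totals and reads per gene were recovered from the steps of the FPKM values (within 0.0001 of a whole number, for 100% of genes). The smallest whole length that fits was taken, so the length and reads of a gene can be a fraction of the true ones. The recovered reads added up to 98.2% of the total in the KDM5A-KO 48 hpf library and 98.4% in the WT 48 hpf library. A gene was called past 2-fold at log2((KDM5A-KO + 1)/(WT + 1)) of 1 or beyond. Python 3.11.15, numpy 2.4.6, pandas 2.3.3, scipy 1.17.1 and matplotlib 3.10.9 were used. Both steps were checked on simulated data.

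The 43 gene lists, and 6 added after the values were seen, were written from general knowledge. The members and lists were chosen with earlier results of these data known. Some genes are in several lists, so the counts of the lists are not independent of one another. Named by rule were the 15 highest and 15 lowest log2 ratios among genes with a symbol and at least 10 FPKM in either 48 hpf library, the 10 largest gains and 10 largest losses in FPKM, up to 5 members past 2-fold per list and direction with the highest mean, and the KDM5 family with the study's genes. All of these were taken from the protein-coding genes. Further list members and GO members were named with their values known. As alternatives, the counts were repeated with a pseudocount of 0.1, rescaling by median ratios, a mean of at least 5 FPKM, a 3-fold threshold, all biotypes, and a counting interval that excludes 1. Some genes that the rule names are not reported here.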

Additional observations from a re-analysis of the deposited data

Results flagged for a closer look

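Among the named genes, 17 lay on opposite sides of WT at 24 and 48 hpf beyond counting error at each time and by at least 1 on the log2 scale. The difference between the times was not tested, and each value has 1 library per group behind it. Subtracting the 24 hpf log2 ratio from the 48 hpf one gave a negative value for 11 genes. It was -3.68 for gngt2a, a phototransduction gene, -2.49 for apoc2, -2.45 for cox4i2, -2.44 for mb, -2.38 for neurod6a, -2.28 for isl2b, -1.91 for tal1, -1.70 for isl1, -1.67 for gng3, -1.59 for pcdh10a and -1.27 for stmn2b. It was positive for 6 genes, with 1.24 for atoh1a, 1.26 for cmn, 1.34 for popdc3, 1.67 for mybpc2b, 2.03 for slc1a3a and 3.52 for tcap. After rescaling by median ratios 16 of the 17 kept opposite signs, and stmn2b had -0.04 at 24 hpf. Only the sign was looked at after rescaling, not the counting error. Some of the 16 were then close to WT at 24 hpf, with log2 ratios of 0.12 for isl1, 0.18 for isl2b and 0.22 for tal1. Whether these still lay beyond counting error there was not tested.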

How the results depend on the processing

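No paired analysis was possible because there was 1 library for each genotype and age. The 602 higher and 841 lower protein-coding genes became 1571 and 2363 with a pseudocount of 0.1 FPKM, 150 and 174 at a 3-fold threshold, and the lower count became 500 with a mean of at least 5 FPKM, where the higher count was 423. Rescaling by median ratios gave 588 and 866, and a counting interval that excludes 1 gave 600 and 836. Of the genes past 2-fold, 41.7% were higher as deposited and 40.4% after rescaling. No median of a list and no named gene changed direction under either alternative run on them, but neither was a real check of direction. A smaller pseudocount cannot alter which library is higher for a gene, and so hardly the direction of a median. The other alternative, rescaling, was a shift of just -0.01 on the log2 scale for this pair of libraries. Only genes or lists almost level with WT could have crossed over. With rescaling hoxb1a, ntd5 and nop56, all at the threshold, were no longer past 2-fold, which left 58 higher genes of ribosome biogenesis, 2 of the notochord and no Hox gene. With the pseudocount of 0.1 the shift of each list's median was set against the counting error of a typical single member, not of the median itself. The shift exceeded that error for 3 lists. Their medians became 0.85 for glucocorticoid and stress genes, 1.42 for inflammatory genes and -1.74 for bipolar, amacrine and ganglion cells. Medians of lists with many low genes, whose counting error is wide, shifted as much, to -0.74 for photoreceptor and pineal genes, -0.88 for protocadherins, -0.72 for transmitter genes and -0.63 for thymus and lymphoid genes. The number of higher members moved over 1.5 times in 17 lists and that of lower members in 26, among them 11 higher for heart and for motile cilia, 9 for ionocytes, 7 for pancreas and for intestine, and 29 lower for protocadherins, 19 for photoreceptor and pineal genes and 16 for glutamate receptors. Low genes are limited by depth and by the pseudocount of 1, which hides differences below about that level.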
